A study of Mus musculus with 6 samples.

Results

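Cathepsins are the proteases of the lysosome, and the 8 genes described here encode 7 of them together with legumain (Ctsb, Ctsd, Ctse, Ctsh, Ctsl, Ctss, Ctsz and Lgmn). They were chosen by gene symbol, with cathepsins C and G left out. Both of those are described later, with the other proteases of the pathway. The array carried 13 probes for the 8 genes among 45281 probes in all, and each of the 8 had at least 1 probe among the 15440 features tested. Expression was measured on 6 Illumina bead arrays, 1 per sample, in total RNA of cells sorted from mouse bone marrow by surface Ly6C, which classical monocytes carry in large amounts. The Ly6C low sort is labelled granulocytic progenitors (GP, n = 3). The Ly6C high sort is labelled monocyte-like precursors of granulocytes (MLPG, n = 3). The labels give no strain, genotype, treatment or age for either group. Whether the replicates are separate animals is not stated, so the p-values cover sample-to-sample spread that may be technical.

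Cathepsins are made as inactive precursors, carried to the lysosome on mannose 6-phosphate receptors and activated by acid and by each other. Cathepsins B, H, L, S and Z are cysteine proteases, cathepsins D and E are aspartic proteases, and legumain cuts after asparagine and processes several cathepsins to their mature forms. In macrophages and dendritic cells they degrade ingested protein, cut the invariant chain of class II molecules and trim endosomal Toll-like receptors. Developing granulocytes pack related proteases into granules. Cystatins and stefins inhibit the cysteine cathepsins, and the transcription factors of the MiT/TFE family, TFEB among them, drive many lysosomal genes through the CLEAR element.

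None of the 8 genes passed the test between MLPG and GP (limma, adjusted p under 0.05 over all features), where 79 of 15440 features, 0.512%, passed. On the brightest probe of each gene, Ctsz, the carboxypeptidase cathepsin Z, had the largest difference, 1.51-fold higher in MLPG. It was called only when arrays were matched by replicate number, a pairing that the labels do not give. With the mean of a gene's probes the difference of Ctse was larger. Ctss was 1.28-fold higher in MLPG on a dim probe. Ctse pointed the other way on its 3 probes, 1.29-fold to 1.88-fold higher in GP. Ctsb and Ctsh, bright on the arrays, differed by under 0.1 on the log2 scale. Unadjusted, 2 of the 8 genes (Ctsz and Ctss, on their brightest probes) had a p under 0.05, against 14.7% of all features. The median log2 difference, MLPG minus GP, was -0.08 over the 8 genes and 0.01 over all features, and 3 of the 8 lay above 0.

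**Figure D1:**
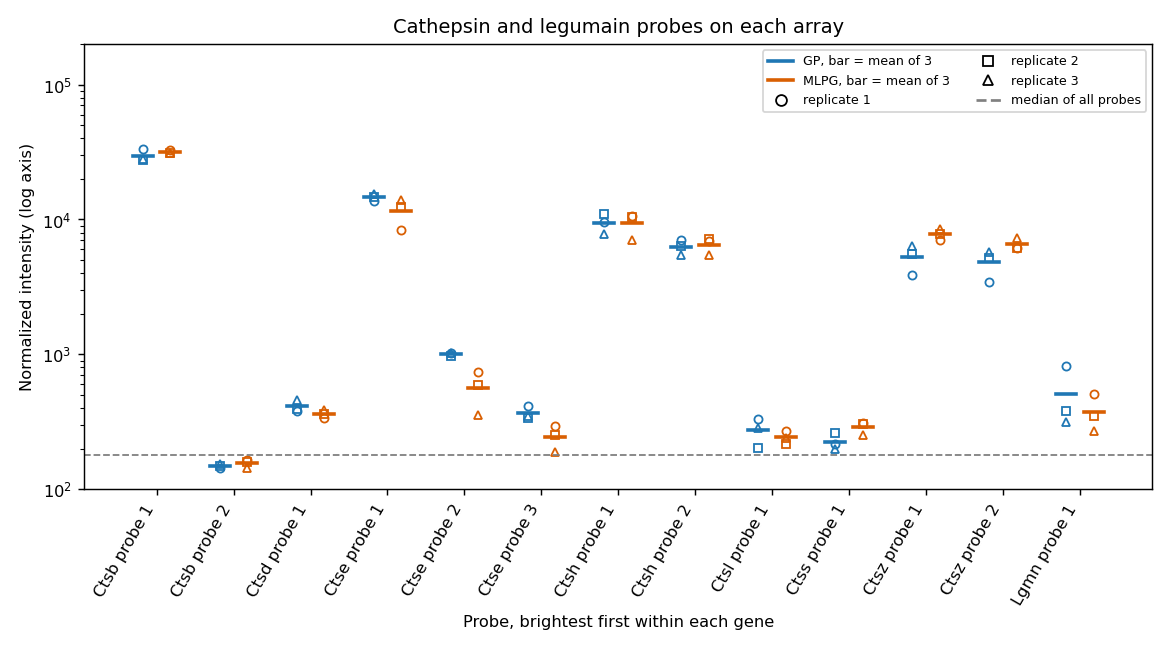
Normalized intensity (vertical log axis) of the 13 probes of the 8 genes on each of the 6 arrays, with GP in blue, MLPG in orange, marker shape for the replicate number and a bar for the mean of 3. The dashed line is the median of all probes, 179.3. The Ctsz groups are separate on both probes and the Ctse groups on probes 2 and 3.

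Promoter sequences of 5 of the 8 genes were found in a RefSeq table (build GRCm38.p6): Ctsd, Ctsl, Ctss, Ctsz and Lgmn. Shown are Ctsz and Ctss, the members with an unadjusted p under 0.05 on their brightest probes, and Ctsd, which holds the motif of the lysosomal transcription factors. Each runs from 250 bases before the transcription start to 10 bases after it, 5′ to 3′ on the gene's strand. They lie at chr2:174439030-174439289 (minus strand), chr3:95526536-95526795 (plus strand) and chr7:142387818-142388077 (minus strand). Capitals mark the motifs found.

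Ctsz: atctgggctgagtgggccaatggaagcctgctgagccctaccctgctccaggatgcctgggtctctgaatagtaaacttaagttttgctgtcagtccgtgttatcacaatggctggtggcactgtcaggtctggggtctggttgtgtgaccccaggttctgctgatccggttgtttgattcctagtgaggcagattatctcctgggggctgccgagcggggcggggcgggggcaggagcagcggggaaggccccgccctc
Ctss: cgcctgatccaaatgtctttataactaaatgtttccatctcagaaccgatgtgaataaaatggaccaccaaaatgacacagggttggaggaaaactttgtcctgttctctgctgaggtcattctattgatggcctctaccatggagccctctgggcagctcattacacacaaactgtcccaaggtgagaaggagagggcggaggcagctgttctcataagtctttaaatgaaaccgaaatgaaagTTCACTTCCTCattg
Ctsd: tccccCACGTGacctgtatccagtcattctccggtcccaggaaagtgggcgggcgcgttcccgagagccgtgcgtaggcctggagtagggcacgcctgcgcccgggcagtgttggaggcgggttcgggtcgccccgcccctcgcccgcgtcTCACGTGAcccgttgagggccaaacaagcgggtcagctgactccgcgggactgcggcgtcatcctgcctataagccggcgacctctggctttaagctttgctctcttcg

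Both strands of the 300-base windows were searched for 4 motifs. TCACGTGA, the inner part of the CLEAR consensus, was found in 0.974% of the 32851 promoters in the table and, of the members, in Ctsd, 99 bases before the start. It contains CACGTG, the E-box core, which 7.15% of the promoters held, as did Ctsd, Ctsl and 1 of 2 Lgmn promoters. GAGGAAGT, a core site of the myeloid factor PU.1, was in 3.2% of promoters, and GGAANNGAA, a composite of Ets and IRF sites, in 8.24%. In Ctss these 2 matches overlap on the strand opposite to the one shown, at the transcription start. In the Ctsz window none of the 4 motifs was found, which says only that these letters are not there.

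Of the cysteine cathepsins among the 8 genes, Ctsz differed most on its brightest probe. Its brighter probe read 3910, 5518 and 6313 on GP arrays 1 to 3 and 7018, 7749 and 8571 on MLPG arrays 1 to 3. The lowest MLPG array was above the highest GP array, and GP array 1 was the lowest of all. The log2 difference was 0.59 ± 0.18 (SE, 95% interval 0.19 to 1.00, n = 3 arrays a group; limma adjusted p = 0.20), from a mean of 5247 ± 1224 (SD) in GP to 7779 ± 777 in MLPG. A second probe read 3419, 5225 and 5782 in GP and 6167, 6145 and 7301 in MLPG. Its groups were separate too, by a log2 difference of 0.47 (limma adjusted p = 0.33 over all kept probes). Non-overlap with MLPG higher held for 10.7% of all features, and for 1 of the 8 genes on its brightest probe.

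Matched by replicate number, Ctsz was higher in MLPG for 3 of 3 numbers, by 0.84, 0.49 and 0.44 on the log2 scale. This pairing was read from the same arrays, not from the labels. With the replicate number as a block in the fit, its adjusted p was 0.027 (limma) and Ctsz was the 1 gene of the 8 that was called, beside 4.08% of all features. On single probes with the block, the brighter one was called (adjusted p = 0.021) and the other was not (0.080). The call with the block was lost without number 1 (adjusted p = 0.062) and without number 3 (0.22). Without GP array 1 the difference, with no block, was 0.39 (limma adjusted p = 0.30).

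Ctss, an endopeptidase that cuts the invariant chain in antigen-presenting cells, was read by 1 dim probe. It gave 215, 262 and 199 on GP arrays 1 to 3 and 308, 305 and 251 on MLPG arrays 1 to 3. MLPG array 3 lay just below GP array 2, so the groups overlapped. The 6 values lay only a little above the median of all probes, 179.3. Background was taken to be left in the deposited values, which the sources do not state. If it was, a difference on such a probe is compressed towards 0. The log2 difference was 0.36 ± 0.13 (SE, 95% interval 0.05 to 0.66; limma adjusted p = 0.27, and 0.084 with the block). It was above 0 for 3 of 3 replicate numbers.

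Ctsb, a cathepsin with both endopeptidase and carboxypeptidase activity, was bright and nearly level. Its bright probe read 33439, 27529 and 28007 in GP and 32498, 30851 and 30930 in MLPG. GP array 1 was the highest of the 6 and the groups overlapped. The log2 difference was 0.09 (95% interval -0.15 to 0.32; limma adjusted p = 0.75). Its other probe, at 143 to 164 on all arrays, lay below the median of all probes, was dropped by the filter and is the 1 probe of the 13 not kept.

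Ctsh, mainly an aminopeptidase, was also nearly level. Its brighter probe read 9577, 11044 and 7768 in GP and 10572, 10497 and 7070 in MLPG. Array 3 was the lowest in each group, and the groups overlapped. The log2 differences of its 2 probes were -0.02 (95% interval -0.46 to 0.41; limma adjusted p = 0.97) and 0.05. The interval leaves room for a difference of about the size seen in Ctss in either direction.

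Ctsl, an endopeptidase of the lysosome, read 332, 203 and 284 in GP and 271, 216 and 241 in MLPG on 1 dim probe. GP array 1 was the highest and GP array 2 the lowest, so the MLPG values lay within the GP range. The log2 difference was -0.15 (95% interval -0.56 to 0.27; limma adjusted p = 0.77) and 0.01 without GP array 1.

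Among the aspartic proteases, Ctse differed by probe. Cathepsin E is found in endosomes rather than mature lysosomes, in stomach, lymphoid cells and red cell precursors. Its brightest probe, which the platform annotation ties to no transcript accession, read 13737, 14598 and 15382 in GP and 8299, 12462 and 13854 in MLPG. MLPG array 1 was the lowest and MLPG array 3 lay above GP array 1. The log2 difference was -0.37 ± 0.18 (SE, 95% interval -0.78 to 0.05; limma adjusted p = 0.39), and -0.15 without MLPG array 1.

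The other Ctse probes gave a larger difference. Probe 2 read 1021, 969 and 1032 in GP and 736, 589 and 353 in MLPG. Probe 3 read 415, 335 and 348 in GP and 295, 251 and 188 in MLPG. On both, every MLPG array lay below every GP array, and MLPG array 3 was the lowest, where the brightest probe had its highest MLPG value. The log2 differences were -0.91 ± 0.23 and -0.60 ± 0.17 (SE; limma adjusted p = 0.16 and 0.19 over 22640 kept probes, of which 0.459% were called). With the block both were called lower in MLPG (limma adjusted p = 0.031 and 0.025), in a fit that called 4.06% of kept probes in either direction. Averaged over its 3 probes, the Ctse difference was -0.63 (limma adjusted p = 0.061). Non-overlap with MLPG lower held for 9.66% of all features and for 0 of the 8 genes on their brightest probes.

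Ctsd, the main aspartic protease of lysosomes, was read by 1 probe, at 382, 394 and 457 in GP and 338, 363 and 390 in MLPG. GP array 3 was the highest and the groups overlapped by a small margin. MLPG was lower for 3 of 3 replicate numbers, and the log2 difference was -0.18 (95% interval -0.42 to 0.07; limma adjusted p = 0.49, and 0.30 with the block).

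Lgmn read 826, 383 and 317 in GP and 508, 351 and 270 in MLPG. Array 1 was the highest in each group, and the spread inside each group was larger than the gap between the groups. The log2 difference was -0.35 ± 0.36 (SE, 95% interval -1.18 to 0.48; limma adjusted p = 0.71). Without GP array 1 it was 0.06. MLPG was lower for 3 of 3 replicate numbers, by 0.70, 0.13 and 0.23 on the log2 scale, and with the block the adjusted p was 0.16 (limma).

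**Figure D2:**
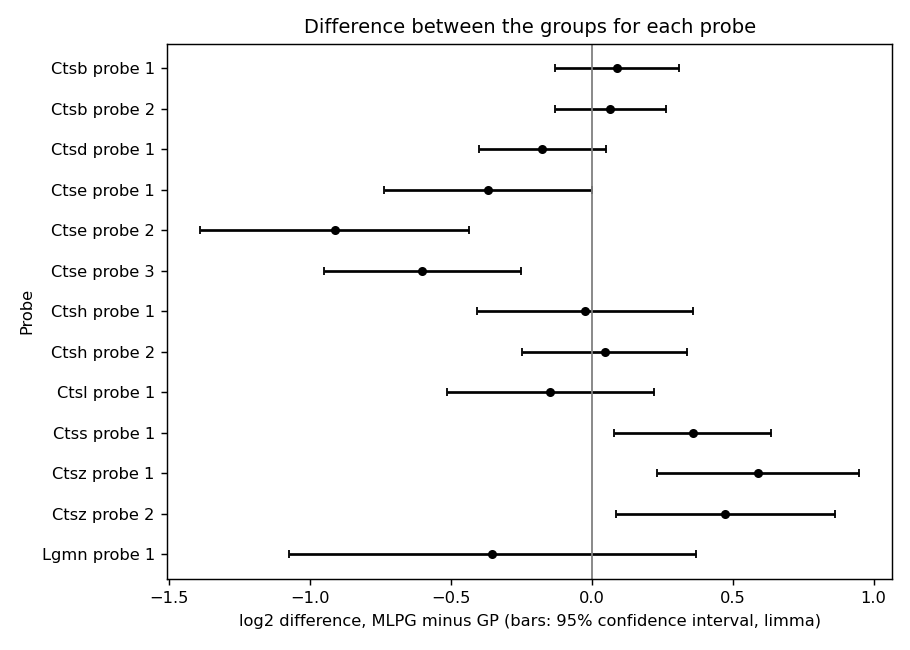
The log2 difference, MLPG minus GP, of each of the 13 probes (points) with its 95% confidence interval (bars) from a limma fit over all 45281 probes. Both Ctsz probes and the Ctss probe lie above 0 with their intervals, and the Ctsb and Ctsh probes lie near 0. All Ctse probes lie below 0 with their intervals in this fit, probe 1 only just (upper end -0.00025). No probe was called after adjustment over all probes.

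Markers of other cell types moved with some of these values. In bulk samples, fewer cells of a type and less RNA per cell cannot be told apart. Granulocyte progenitor genes, named for the label of GP, were bright in both groups. The intensities of the 9 measured summed to between 440567 and 461849 in GP and between 422999 and 466991 in MLPG, and 0 of the 9 were called. Elane, Mpo, Prtn3 and Ctsg lay near the scale's maximum of 71674 in both groups, where a difference could hardly show. The sums and calls therefore cannot show that the groups are alike. Of 11 measured monocyte markers 1 rose in MLPG, Klf4 (limma adjusted p = 0.027), and 8 were higher with the block. Lgals3, on the same list, pointed the other way, by a log2 difference of -0.42 (limma adjusted p = 0.23, and 0.076 with the block). Of 7 measured eosinophil markers 5 fell, and 6 were lower with the block. Of 8 mature neutrophil markers 4 fell, and 6 were lower with the block. Of 7 basophil and mast cell markers 1 fell, Gata2 (limma adjusted p = 0.038), and 5 were lower with the block. Their part in the Ctsz and Ctss differences was not tested.

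Lgmn was highest on GP array 1, where 9 of the 10 measured tissue macrophage genes were also highest. The exception, Adgre1, was lowest there, at 940 against 981 to 1332 on the other arrays. GP array 1 was also the highest for 7 of 8 erythroid and 5 of 8 mature neutrophil genes, so this was not particular to macrophage genes. C1qb, a complement chain made by macrophages, read 1384, 192 and 206 in GP and 174, 131 and 109 in MLPG. C1qc read 1230, 156 and 158 in GP and 160 to 177 in MLPG. The receptor tyrosine kinase gene Axl read 2471, 690 and 749 in GP and 536 to 704 in MLPG. GP array 1 stood apart from the other 5 on C1qb, C1qc and Axl. The 14 macrophage markers summed to between 36870 and 58862 in GP and between 34749 and 45087 in MLPG. Slc40a1 and Vcam1, at 31610 and 16293 on GP array 1, made up most of each sum. The sums therefore say little about the other macrophage markers. Of the 14 markers 10 passed the filter and 0 were called, and Cd5l, Mertk, Siglec1 and Spic lay below it. The part of macrophage RNA in the Lgmn and Ctsl values was not tested.

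The dimmer Ctse probes had their lowest values on MLPG array 3, where all 8 measured erythroid genes were also lowest. This was not particular to erythroid genes. On the same array 6 of 8 mature neutrophil, 5 of 7 basophil and mast cell and 4 of 7 eosinophil genes were lowest too. Hba-a1, an alpha globin gene, read 5869, 2366 and 2190 in GP and 1951, 1077 and 273 in MLPG. Slc4a1, the anion exchanger of the red cell membrane, read 810, 643 and 519 in GP and 473, 343 and 159 in MLPG. On both, MLPG array 3 was the lowest and every MLPG array lay below every GP array. The 8 erythroid markers on the platform summed to between 6346 and 15251 in GP and between 1686 and 6382 in MLPG. All 8 passed the filter, 0 were called, and 5 were lower with the block. The part of erythroid RNA in the Ctse values was not tested.

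**Figure D3:**
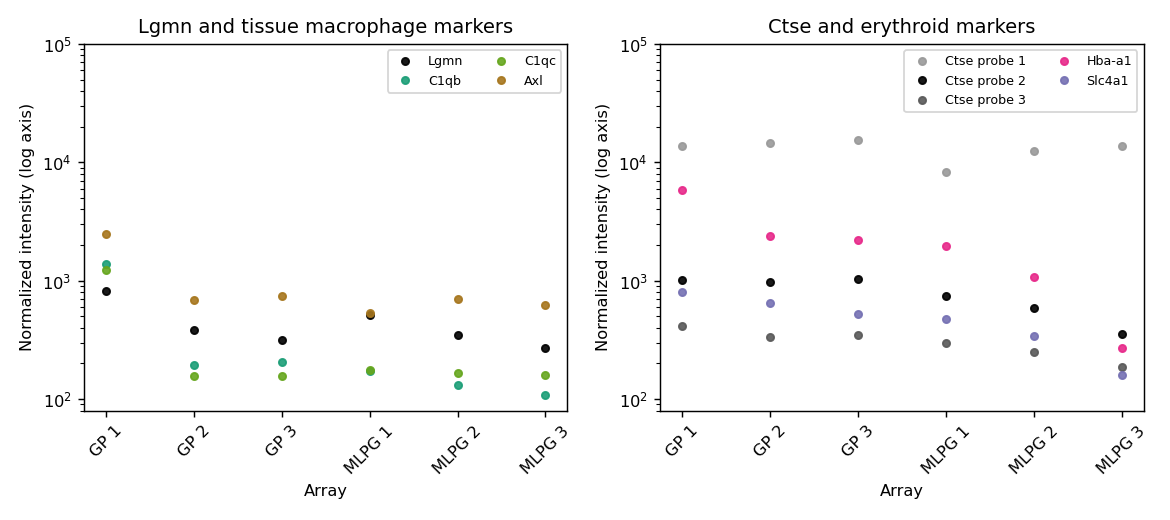
Normalized intensity (log axes) on each array of Lgmn beside the macrophage markers C1qb, C1qc and Axl (left), and of the 3 Ctse probes beside the erythroid markers Hba-a1 and Slc4a1 (right). Lgmn and the 3 macrophage markers are highest on GP array 1, and Ctse probes 2 and 3 and both erythroid markers are lowest on MLPG array 3.

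The other proteases of the pathway showed 1 call. Of 20 other cathepsins and lysosomal peptidases on the platform 8 were measured, and 1 rose, Ctsc, which activates granule proteases, from 4549 in GP to 12781 in MLPG (limma adjusted p = 0.012). Ctsa, a serine carboxypeptidase that also protects other lysosomal enzymes, read 485, 509 and 576 in GP and 626, 723 and 673 in MLPG. The Ctsa groups were separate, by a log2 difference of 0.37 (limma adjusted p = 0.18). Dpp7, a dipeptidyl peptidase, and Pcyox1, a lysosomal oxidase that sits on this list by its location, were higher in MLPG by 0.42 and 0.26 on the log2 scale without passing (limma adjusted p = 0.19 and 0.33). Ctsg, a granule serine protease, was near the top of the scale in both groups, at 67066 and 65957. The median over the 8 was 0.25, and the list contains the Ctsc result already known from these arrays.

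Inhibitors of cysteine cathepsins showed 0 calls of 8 measured genes (limma) and a median of -0.13. Of the 8, 5 had an unadjusted p under 0.05, against 14.7% of all features. The stefin gene Stfa2 read 3240, 2009 and 15282 in GP and 642, 761 and 1439 in MLPG, and Stfa1 read 7330, 6555 and 18078 in GP and 3251, 4329 and 5480 in MLPG. GP array 3 was far above the other GP arrays on both. The stefin genes are close copies whose probes may read one another. With the block Stfa1, Stfa2 and Serpinb6a, an intracellular serpin, were lower in MLPG (limma adjusted p = 0.018, 0.011 and 0.022). Cstb, the stefin found in most cells, differed by 0.30 (limma adjusted p = 0.24), and Cst3, the secreted cystatin C, by 0.08 (0.74).

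Genes that carry hydrolases to the lysosome showed 0 calls of 23 (limma) and a median of 0.06. Of the 23, 7 had an unadjusted p under 0.05, against 14.7% of all features. Gnptab, which makes the mannose 6-phosphate tag, differed by 0.52 (limma adjusted p = 0.18). Gga2, an adaptor that loads tagged enzymes into vesicles, differed by 0.44 (0.18). Igf2r, a receptor of the tag, differed by -0.47 and was lower with the block (limma adjusted p = 0.18, and 0.037 with the block). Cln3, a lysosomal membrane protein, differed by -0.34 (limma adjusted p = 0.16).

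Lysosomal membrane genes showed 0 calls of 21 (limma) and a median of 0.05. Of the 21, 5 had an unadjusted p under 0.05, against 14.7% of all features. Tmem192 differed by 0.53 and was higher with the block (limma adjusted p = 0.091, and 0.022 with the block). Lamp1, an abundant glycoprotein of the lysosomal membrane, read 19870 to 22403 in GP and 25303 to 26816 in MLPG, a log2 difference of 0.31 (limma adjusted p = 0.18). Npc2, a cholesterol carrier of the lysosome, differed by 0.38, and the peptide transporter gene Abcb9 by -0.32 (limma adjusted p = 0.22 and 0.19). The proton pump showed 0 calls of 15 subunits (limma, 2 at an unadjusted p under 0.05; median 0.05). Its subunit gene Atp6v0a1 differed by -0.49 and was lower with the block (limma adjusted p = 0.11, and 0.042 with the block). The subunit genes Atp6v1h, Atp6v1c1 and Atp6v0d1 differed by 0.24, 0.21 and -0.15 (limma adjusted p = 0.31, 0.35 and 0.53).

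Other lysosomal hydrolases and cofactors showed 0 calls of 32 (limma), with 8 at an unadjusted p under 0.05, against 14.7% of all features. Of the 32, 25 lay above 0, with a median of 0.13, where 51.7% of all features lay above 0. Ifi30, a thiol reductase that opens disulfides for the cathepsins, read 1380, 2050 and 1930 in GP and 3624, 3414 and 2966 in MLPG. Its groups were separate, by a log2 difference of 0.92 (limma adjusted p = 0.060, and 0.020 with the block). Gusb, beta-glucuronidase, differed by 0.40 (limma adjusted p = 0.18, and 0.045 with the block), Lipa, the acid lipase, by 0.35 (0.14) and Acp2, an acid phosphatase, by -0.31 (0.19). The transcription factors Tfec, Tfeb and Tfe3 differed by 0.29, -0.19 and -0.21, and 0 of the 3 measured were called (limma; 1 at an unadjusted p under 0.05).

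Genes of class II presentation and of endosomal Toll-like receptors, pathways that cathepsins serve, were divided. Of 8 measured class II genes 0 were called (limma) and 7 had an unadjusted p under 0.05, against 14.7% of all features. H2-Aa, H2-Ab1, H2-Eb1 and Cd74, the invariant chain, differed by -1.40, -0.93, -1.21 and -1.14 and were lower with the block (limma adjusted p between 0.0058 and 0.033). On MLPG arrays 1 to 3 H2-Aa read 191, 144 and 141 and H2-Eb1 read 257, 161 and 151. These values lay near the median of all probes, 179.3, where sizes are uncertain, and H2-Ab1 was brighter, at 1069 to 1230 in MLPG. The Cd74 groups overlapped. H2-DMa, a chain of the peptide exchange factor, differed by 0.59 and was higher with the block (limma adjusted p = 0.24, and 0.033 with the block). Of the markers of cells rich in class II, 0 of 6 measured dendritic cell genes and 0 of 3 B cell genes were called, and 2 dendritic cell genes, Clec9a and Siglech, were lower with the block. Their part in the class II values was not tested. Of 4 measured endosomal Toll-like receptor genes and their chaperone 0 were called (limma, 1 at an unadjusted p under 0.05). Unc93b1, the chaperone, differed by 0.21, Tlr7 by -0.40, Tlr8 by 0.22 and Tlr13 by -0.66.

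**Figure D4:**
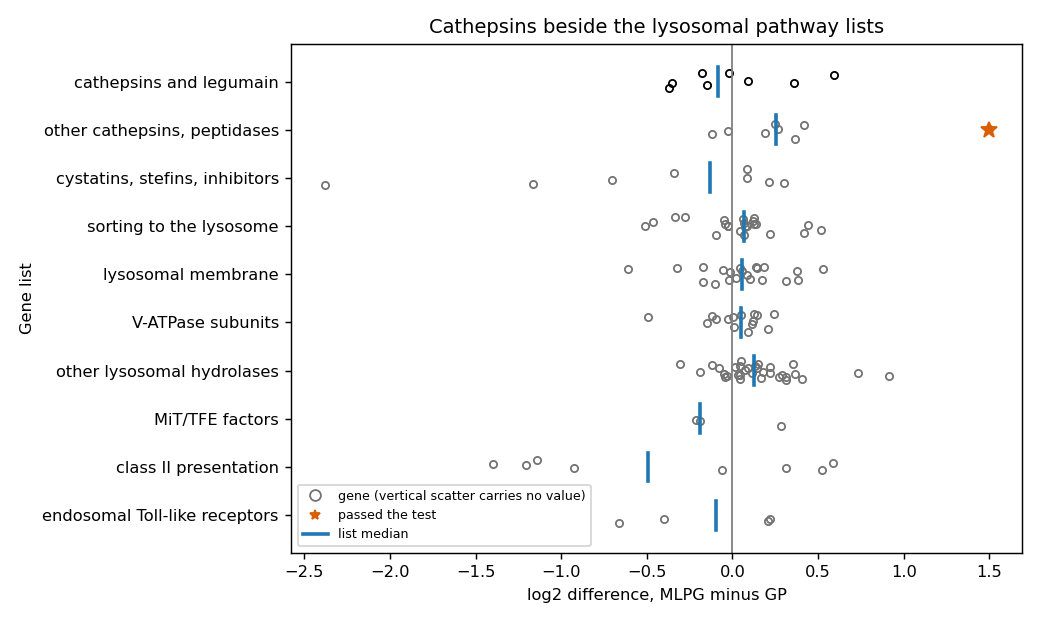
The log2 difference, MLPG minus GP, of each measured gene (circles) in the 8 cathepsin and legumain genes and in 9 lists of the lysosomal pathway, with the list median as a blue line and called genes as stars. The 1 star is Ctsc, and the cathepsins and legumain lie between -0.37 and 0.59.

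Likeness to other genes was measured as Pearson's r of log2 values over the 6 arrays, against 10942 named genes, and is a description. Points share a group structure of 3 against 3, so high values arise easily. Ctsz was most like Sil1 (r = 1.00), Pabpc4, Fkbp1a and Mphosph6 (r at least 0.995). Ctss was most like H2-DMb1 (r = 0.99), the partner chain of H2-DMa, then Slc8a1, Sgpl1 and Rgs10. Ctse, on its brightest probe, was most like Olfr1198 (r = 0.99), Olfr49, Dcaf5 and Trim29, and the probes of Olfr1198, Olfr49 and Trim29 had group means between 181 and 232, close to the median of all probes.

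Across the processing settings in which each gene was tested, Ctsz, Ctss and Ctsb stayed above 0 and Ctse and Ctsd below 0. Ctsh, Ctsl and Lgmn changed sign under at least 1 setting.

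**Figure D5:**
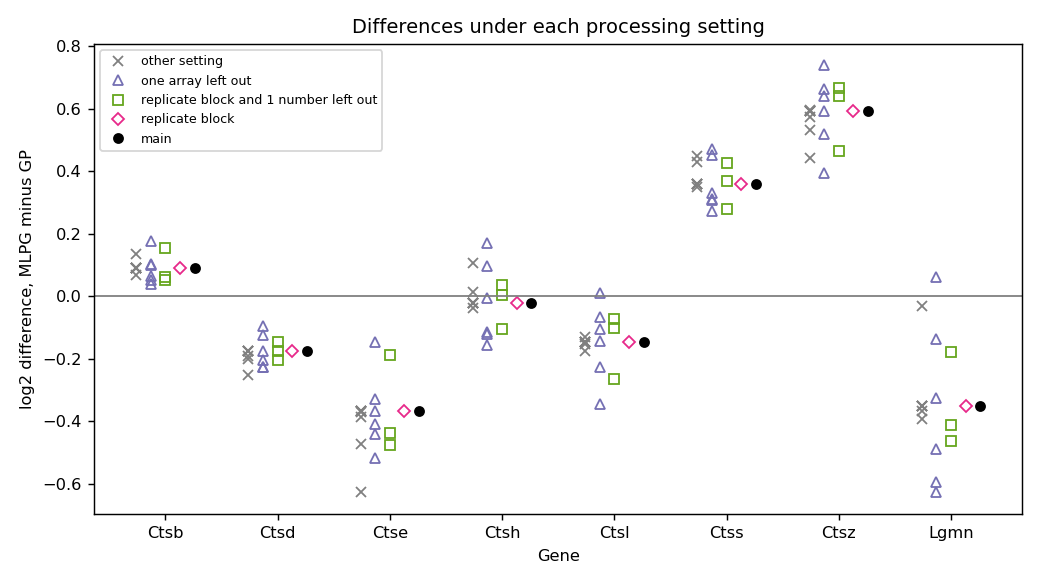
The log2 difference, MLPG minus GP, of each of the 8 genes under each processing setting in which it was tested: the main one (black), other settings (grey), 1 array left out (purple), the replicate block (pink), and the block with 1 replicate number left out (green). Ctsz lies between 0.39 and 0.74 and Lgmn between -0.63 and 0.06.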

How the data were processed

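The authors deposited normalized probe intensity values on a linear scale. Per the submitters' processing notes GenomeStudio was used; its version and settings are not given in the sources. The first column of deposited intensity values had a mean of 1501 and a median of 179.3. Over all 6 columns the minimum was 88.2 and the maximum 71674. Exact values recurred between arrays, such as 36469.4 for Nkg7 on GP array 2 and for Xbp1 on MLPG array 3. The values were therefore taken to be quantile normalized with background left in. A second table has 12 columns that match no sample's labels and were not used, so neither its signals nor its detection p-values served as a filter. Symbols came from the platform annotation.

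Probes with a mean log2 value above the median of all probes, 7.48, were kept (22640), and the brightest probe stood for a gene, giving 15440 features. limma 3.58.1 in R 4.3.3 tested log2 values, MLPG minus GP, without covariates, with Benjamini-Hochberg adjustment over all features and a call at an adjusted p under 0.05. The test was tried on simulated data. Over all features, deviations from the group means of arrays with the same number in GP and MLPG had correlations of 0.38, 0.30 and 0.47, each above 0.1, so the replicate number was added as a block in a further fit. That pairing was read from these arrays, not from the labels. The members and lists were chosen with earlier results of these data known. Genes named were the 8 members, the 4 smallest p-values and any called gene of each pathway list, and the 4 genes most like each of the 3 members with the smallest p. Ctsg, Cst3, H2-DMa and the cell type markers, other than Klf4, were named after their values were seen. The array's build is not given in the sources, and only the RefSeq promoters carry coordinates.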

Additional observations from a re-analysis of the deposited data

How the results depend on the processing

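With 6 arrays and dim probes for Ctss, Ctsl, Ctsd and Lgmn, small differences were not detectable. The number of the 8 genes called was 0 with all arrays, 1 with the replicate block, and 0 under each of the other single changes: no filter, a stricter filter, the mean of a gene's probes, every probe tested alone, cyclic loess, normexp, array weights, trended and robust variances, and each array left out. Under the stricter filter only 4 of the 8, Ctsb, Ctse, Ctsh and Ctsz, were tested. On the brightest probes the replicate block changed no other member's call. Of the 12 kept probes tested alone it called 3, the brighter Ctsz probe and 2 dimmer Ctse probes, against 0 without it. Over all kept probes it called 4.06%, against 0.459% without it. Alternatives chosen after seeing the data joined the block with 1 number left out, and gave 0 to 3 called genes: 3 without number 2 (Ctsz, adjusted p = 0.0053, Ctss, 0.026, and Lgmn, 0.033, limma) and 0 without number 1 or 3. The fit without number 2 called 2056 of all 15440 features, against 465 without number 1 and 6 without number 3.

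The Ctsz difference lay between 0.39 and 0.74 and its adjusted p between 0.0053 and 0.52, and Ctss lay between 0.27 and 0.47. Ctsh, at -0.02, turned to 0.012 with the mean of its probes, 0.11 with array weights, 0.0034 and 0.035 in the block without numbers 2 and 3, and lay between -0.16 and 0.17 with arrays left out. With arrays left out Ctsl lay between -0.34 and 0.0094 and Lgmn between -0.63 and 0.063, both at the upper value without GP replicate 1. Ctse was -0.15 without MLPG replicate 1 and -0.63 with the mean of its probes. The cause of these shifts was not tested.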
